A study of Mus musculus with 2 samples.

Results

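Ribosome biogenesis genes and genes of RNA polymerase I were compared between 1 array of CSF1-treated macrophages and 1 array of untreated macrophages. The set held 46 genes chosen by name for their roles in nucleolar ribosome assembly, with earlier results of these data known. It was taken out of 18194 genes with a probe set annotated to exactly 1 gene symbol. All 46 had such a probe set, 97 in all of the 45101 on the array, and each gene is read from whichever of its probe sets was brightest over both arrays. The cells were thioglycolate-elicited peritoneal macrophages, inflammatory cells recruited to the peritoneum by an irritant. They came from 8-week-old male wild-type C57BL6 mice that had received 0.2 ml of 10% thioglycolate 1 week before lavage. Cultures at 80% confluence in α-MEM with 10% FBS were kept for 12 h with 100 ng/ml CSF1 (macrophage colony-stimulating factor) in the first group and for 12 h without it in the control group. RNA was hybridised to Affymetrix Mouse Genome 430 2.0 arrays. The labels do not say how many mice gave cells or whether both cultures came from the same mice.

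Ribosomes are built in the nucleolus, where RNA polymerase I transcribes the ribosomal RNA precursor. Small nucleolar ribonucleoproteins (snoRNPs) of the box C/D and box H/ACA kinds then methylate and pseudouridylate it, the small subunit processome folds and cleaves it, and separate sets of assembly factors mature the small and the large subunit. The pathway is tied to cell growth, and Myc is a well-known activator of its genes. CSF1 acts through the receptor tyrosine kinase Csf1r and drives macrophage growth and division.

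Since each group has 1 array, the groups cannot be tested against each other, no difference below has a replicate check, and this number limits the precision. Errors given with a gene are SDs over its own probe sets and do not cover cultures or animals. Pooled over 3874 genes with at least 2 probe sets above background on both arrays it was 0.29 on the log2 scale, and over the 25 members with such probe sets it was 0.35. A background level of 133 units was set from genes of unrelated tissues. Of the 46 members, 45 were above it on both arrays, and Rrp9 was above it on the CSF1 array only.

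The members, chosen with earlier results of these data known, were slightly higher on the CSF1 array as a group. Their median log2 ratio of CSF1 over control was 0.18, or 1.13-fold, with quartiles of -0.06 and 0.36, while the median of all 11212 measured genes was 0.00. The log2 ratio was above 0 for 32 members (69.6%), against 50.0% of all measured genes. It was at least 0.32 above 0 for 14 members (30.4%), against 17.1% of all measured genes, and at least 0.32 below 0 for 2 members, Nop58 and Polr1e (4.35%), against 16.2%. Among the 2904 genes in the same range of signal as the middle of the members (579 to 1599 units), 53.6% were above 0, 16.0% were past 0.32 in the upward direction and 12.9% in the downward direction. At 1.5-fold the members were close to all measured genes in the upward direction. Of the 46 members, 3 (Rrp9, Wdr36 and Dkc1) were higher by 1.5-fold or more, against 5.96% of all measured genes. Lower by as much were 0 members, against 5.54%, and of the members Rrp9 was past 2-fold, against 0.999%. The other probe set of Wdr36 had a log2 ratio of 0.00, and those of Dkc1 had 0.37 and -0.58. Under quantile normalization, a loess correction or centring on the spike controls, the median of the members stayed between 0.14 and 0.19 above that of all measured genes. In RNA from a whole culture, a different mix of cells and a different amount of RNA per cell cannot be told apart.

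**Figure D1:**
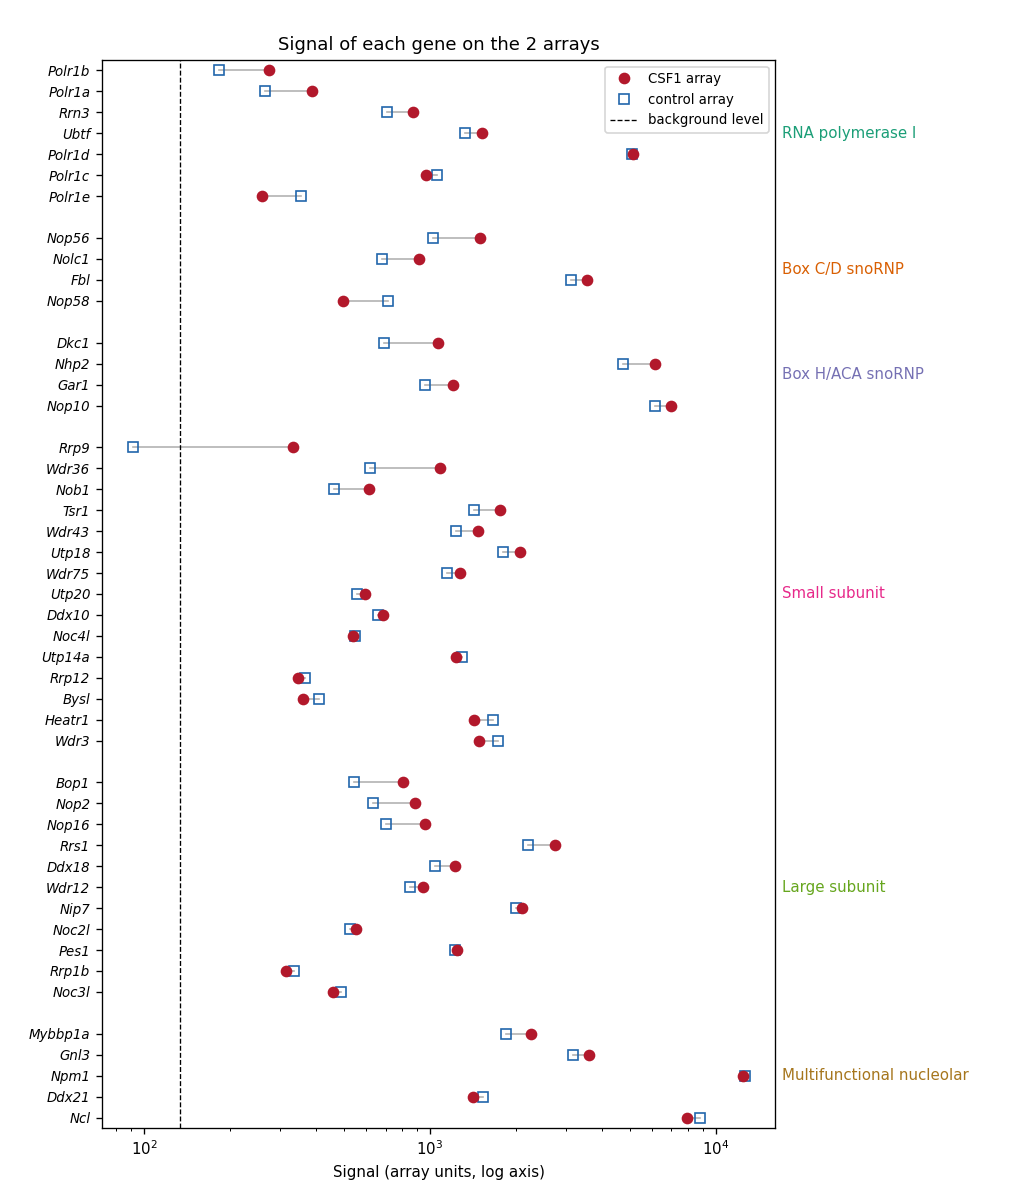
Signal of the 46 genes on the CSF1 array (filled circles) and the control array (open squares), on a log axis in array units, grouped by role. The dashed line is the background level of 133 units, and only Rrp9, at 91.3 units on the control array, has a point left of it; signals of different genes come from different probes and are not comparable.

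The promoters of 6 members are shown because these genes span the range of ratios, from Rrp9, the highest, to the RNA polymerase I subunit gene Polr1e, among the lowest, and because Nop2 and Rrn3 hold the canonical E-box bound by Myc and Max. Each run is the 250 bases before the annotated gene start on the gene's own strand, read 5′ to 3′ from RefSeq (GRCm38.p6). They lie at chr2:129100746-129100995 (Polr1b), chr16:13780449-13780698 (Rrn3), chr4:45018359-45018608 (Polr1e), chr2:130274162-130274411 (Nop56), chr6:125131633-125131882 (Nop2) and chr9:106477059-106477308 (Rrp9), all on the plus strand. Capitals mark matches, on either strand, to the E-box CACGTG, the ETS motif CCGGAAG, the palindromic NRF1 motif, the GC box GGGCGG or the CCAAT box.
Polr1b: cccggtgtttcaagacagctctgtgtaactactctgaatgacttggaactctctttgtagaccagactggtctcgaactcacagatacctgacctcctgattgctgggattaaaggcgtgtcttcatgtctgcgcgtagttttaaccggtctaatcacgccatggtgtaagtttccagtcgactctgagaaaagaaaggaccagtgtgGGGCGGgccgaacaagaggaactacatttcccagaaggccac
Rrn3: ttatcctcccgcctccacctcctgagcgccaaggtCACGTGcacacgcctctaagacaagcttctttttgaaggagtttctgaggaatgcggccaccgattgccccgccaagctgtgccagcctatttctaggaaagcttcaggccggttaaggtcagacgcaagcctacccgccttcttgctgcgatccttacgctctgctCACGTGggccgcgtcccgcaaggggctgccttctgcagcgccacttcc
Polr1e: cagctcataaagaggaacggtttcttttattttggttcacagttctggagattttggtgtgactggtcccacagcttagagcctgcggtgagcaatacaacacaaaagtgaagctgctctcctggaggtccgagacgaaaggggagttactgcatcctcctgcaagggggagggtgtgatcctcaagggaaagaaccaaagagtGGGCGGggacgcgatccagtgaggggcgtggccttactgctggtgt
Nop56: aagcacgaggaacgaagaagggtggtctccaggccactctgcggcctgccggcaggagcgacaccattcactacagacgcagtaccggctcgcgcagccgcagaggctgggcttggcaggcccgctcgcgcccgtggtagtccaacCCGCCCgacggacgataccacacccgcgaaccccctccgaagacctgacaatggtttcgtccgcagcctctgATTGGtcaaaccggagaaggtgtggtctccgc
Nop2: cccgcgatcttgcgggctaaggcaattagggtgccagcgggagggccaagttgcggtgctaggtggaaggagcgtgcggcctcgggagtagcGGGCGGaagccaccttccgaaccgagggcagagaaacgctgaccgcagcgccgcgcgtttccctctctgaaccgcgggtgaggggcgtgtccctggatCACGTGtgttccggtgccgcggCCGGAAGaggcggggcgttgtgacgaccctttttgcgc
Rrp9: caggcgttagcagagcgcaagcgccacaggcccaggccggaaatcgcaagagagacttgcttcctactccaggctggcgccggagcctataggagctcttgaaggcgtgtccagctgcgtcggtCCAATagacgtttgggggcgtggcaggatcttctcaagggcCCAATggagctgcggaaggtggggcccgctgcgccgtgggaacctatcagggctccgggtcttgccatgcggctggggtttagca

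Rrn3 held the E-box at 215 and at 48 bases before its start, and Nop2 held it at 60 bases. Promoters of 40 members were matched by symbol, and those of Nop2, Rrn3 and Utp18 held an E-box, or 7.5% of them. The share was 10.1% among the 9052 other measured genes with a promoter and 6.86% among all 27025 genes with one. The ETS motif was in 9 of the 40 (22.5%), against 15.7% of other measured genes. The GC box was in 27 of the 40 (67.5%), against 63.3%, and the CCAAT box in 14 (35%), against 39.8%. The NRF1 motif was in 0 of the 40, against 1.94%. The 3 members with an E-box had log2 ratios of 0.50 (Nop2), 0.30 (Rrn3) and 0.19 (Utp18), and the 37 without it had a median of 0.14, with 25 above 0. For the GC box the median was lower with the motif, 0.14 against 0.30 without it. For the ETS motif it was 0.19 against 0.15, and for the CCAAT box 0.17 against 0.16. A link between motifs and ratios was not tested. These matches are of letters and do not show binding.

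Among the member genes of RNA polymerase I, the catalytic core (Polr1a and Polr1b) and the initiation factors Rrn3 and Ubtf were higher on the CSF1 array. The other member subunits were level or lower. Polr1b, the second largest subunit, had 274 units on the CSF1 array and 183 units on the control array, a log2 ratio of 0.58 or 1.495-fold, on its only probe set. Polr1a, the largest subunit, had 387 units on the CSF1 array and 265 units on the control array, a log2 ratio of 0.55. Both genes lay close to the background level, and the other 4 probe sets of Polr1a were not above it on both arrays. Rrn3, which brings the polymerase to the promoter, had 872 units on the CSF1 array and 707 units on the control array, a log2 ratio of 0.30. Ubtf, the architectural factor of active ribosomal RNA genes, had 1526 units on the CSF1 array and 1323 units on the control array, a log2 ratio of 0.21.

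Polr1c and Polr1d, which form an assembly platform shared with RNA polymerase III, did not follow the core. Polr1c had 971 units on the CSF1 array and 1059 units on the control array, and its log2 ratio averaged -0.22 ± 0.14 (SD, n = 2 probe sets). Polr1d had 5152 units on the CSF1 array and 5082 units on the control array, and its 4 probe sets ran between -0.25 and 0.33. Polr1e, whose product sits at the edge of the enzyme as a partner of the Polr1g subunit, had 259 units on the CSF1 array and 356 units on the control array, a log2 ratio of -0.46 or 1.37-fold lower. Its other probe set had a log2 ratio of 0.12, so the direction of Polr1e differed between its probe sets. Of the 7 genes, 5 were above 0, with a median of 0.21.

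**Figure D2:**
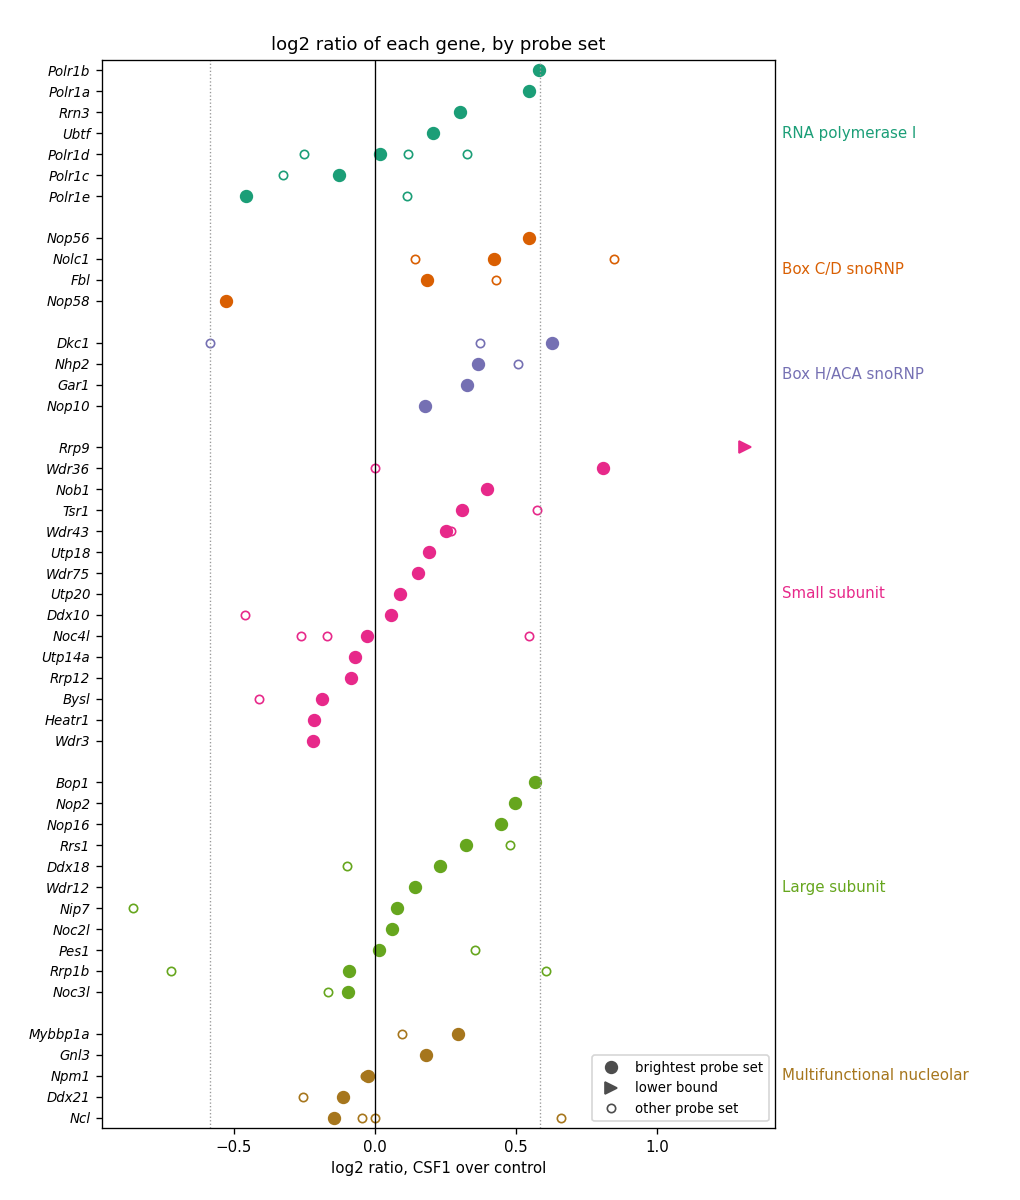
log2 ratio (CSF1 array over control array) for each of the 46 genes, grouped by role. Filled points are the brightest probe set, open points the other probe sets above background on both arrays, the triangle of Rrp9 (1.31) a lower bound, and the dotted lines 1.5-fold; all 4 box H/ACA genes lie right of 0, and the open points of Dkc1, Nip7, Rrp1b and Noc4l are far from the filled ones.

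The box C/D snoRNP proteins, which carry out guided methylation of ribosomal RNA, were higher with 1 exception. Nop56, a core protein of these particles, had 1503 units on the CSF1 array and 1030 units on the control array, or 1.46-fold, and its 2 probe sets had log2 ratios of 0.54 and 0.55. Fbl, the methyltransferase itself, had 3545 units on the CSF1 array and 3118 units on the control array, and its log2 ratio averaged 0.31 ± 0.17 (SD, n = 2 probe sets). Nolc1, a chaperone that binds snoRNPs in the nucleolus and in Cajal bodies, had 915 units on the CSF1 array and 683 units on the control array, and its 3 probe sets were all above 0, between 0.14 and 0.85. Nop58, the partner of Nop56 in the same particle, went the other way. It had 495 units on the CSF1 array and 713 units on the control array, 1.44-fold lower, on its only probe set, and this log2 ratio of -0.53 was the lowest of all 46 members.

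All 4 core proteins of the box H/ACA snoRNPs, which pseudouridylate ribosomal RNA, were above 0, with a median log2 ratio of 0.35. Nhp2 had 6129 units on the CSF1 array and 4752 units on the control array, 1.29-fold, and its log2 ratio averaged 0.44 ± 0.10 (SD, n = 2 probe sets). Gar1 had 1202 units on the CSF1 array and 959 units on the control array, a log2 ratio of 0.33, on 1 probe set. Nop10 had 6955 units on the CSF1 array and 6151 units on the control array, and both its probe sets had a log2 ratio of 0.18. The ratio of Nop10 was small and even between its probe sets, unlike that of the enzyme of the particle. Dkc1, the pseudouridine synthase, had 1072 units on the CSF1 array and 693 units on the control array, 1.55-fold, on its brightest probe set. Its other probe sets had log2 ratios of 0.37 and -0.58, so that the average of the 3 was 0.14 ± 0.64 (SD).

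The 15 genes of the small subunit processome and of small subunit maturation were spread around a median log2 ratio of 0.09, with 9 above 0. Rrp9, a protein of the U3 snoRNP within the processome, had 331 units on the CSF1 array and 91.3 units on the control array. Since the second value lies under the background level, the difference is a lower bound, at least 2.48-fold higher, on its only probe set, and at least 1.78-fold with the stricter background level of 186 units. Wdr36, a WD-repeat protein of the processome, had 1088 units on the CSF1 array and 620 units on the control array, 1.75-fold, while its other probe set gave 802 units on the CSF1 array and 801 units on the control array. The 2 probe sets of Wdr36 had nearly the same mean signal, so its place among the highest members depends on a narrow choice. Nob1, the nuclease that cuts the end of the small subunit RNA, had 611 units on the CSF1 array and 463 units on the control array, 1.32-fold. Tsr1, a late maturation factor, averaged 0.44 ± 0.19 (log2 ratio, SD, n = 2 probe sets), with 1765 units on the CSF1 array and 1423 units on the control array for the brighter one. Wdr43, a processome protein also needed for transcription of ribosomal RNA, had 1473 units on the CSF1 array and 1236 units on the control array, and its 2 probe sets had log2 ratios of 0.25 and 0.27.

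The other processome genes had smaller ratios of both signs. Utp18 (0.19), Wdr75 (0.15), the scaffold gene Utp20 (0.09) and the helicase gene Ddx10 (0.06) were above 0 on the log2 scale. Noc4l (-0.03), Utp14a (-0.07), the export factor Rrp12 (-0.08), Bysl (-0.19), Heatr1 (-0.22) and Wdr3 (-0.22) were below 0. The lowest of them, Wdr3, had 1486 units on the CSF1 array and 1731 units on the control array. Heatr1, Wdr43 and Wdr75 belong to 1 subcomplex of the processome and Wdr3, Wdr36 and Utp18 to another, and in both the ratios had both signs. Noc4l ran between -0.26 and 0.55 over 4 probe sets, and the second probe set of Ddx10 was at -0.46.

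Of the 11 large subunit assembly genes, 9 were above 0, with a median log2 ratio of 0.14, and 4 were at 0.32 or more. Bop1 had 805 units on the CSF1 array and 543 units on the control array, 1.48-fold, but its complex partners Pes1 and Wdr12 had log2 ratios of 0.01 and 0.14. The second probe set of Bop1, below background on both arrays, brought the mean of all its probe sets under 0. Nop2, a methyltransferase of the large subunit RNA, had 891 units on the CSF1 array and 631 units on the control array, 1.41-fold, and Nop16 had 959 units on the CSF1 array and 703 units on the control array, 1.36-fold. Rrs1, which in yeast helps bring a small ribosomal RNA into the large subunit, had 2750 units on the CSF1 array and 2197 units on the control array, and its log2 ratio averaged 0.40 ± 0.11 (SD, n = 2 probe sets). Of these 4, Rrs1 was the one with more than 1 probe set above background on both arrays.

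The remaining large subunit genes were within 0.32 of 0 on the log2 scale. The helicase gene Ddx18 (0.23), Nip7 (0.08) and Noc2l (0.06) were above 0 on the log2 scale, and Rrp1b (-0.09) and Noc3l (-0.09) below it. Noc3l, the partner of Noc2l, had 459 units on the CSF1 array and 491 units on the control array. The second probe set of Nip7 had a log2 ratio of -0.86, and the 3 probe sets of Rrp1b ran between -0.72 and 0.61.

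The 5 multifunctional nucleolar proteins, among them the abundant histone and RNA chaperones of the nucleolus, had the median log2 ratio nearest to 0 of the 6 roles, -0.02, with none at 0.32 from 0. Npm1, nucleophosmin, had 12413 units on the CSF1 array and 12621 units on the control array, and its 2 probe sets had log2 ratios of -0.02 and -0.03. Ncl, nucleolin, had 7951 units on the CSF1 array and 8788 units on the control array, a log2 ratio of -0.14, with its other probe sets above background between -0.05 and 0.66. The helicase gene Ddx21, which links RNA polymerase I and II transcription, had 1414 units on the CSF1 array and 1529 units on the control array and was below 0 on both its probe sets. Mybbp1a, a nucleolar Myb-binding protein, had 2265 units on the CSF1 array and 1846 units on the control array, a log2 ratio of 0.29, and Gnl3, nucleostemin, had 3611 units on the CSF1 array and 3180 units on the control array, a log2 ratio of 0.18. Under quantile normalization the median of these 5 genes was 0.04.

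The probe sets of a member pointed the same way more often than not. Of the 25 members with at least 2 probe sets above background on both arrays, 11 had all of them above 0 (44.0%), against 24.9% of the 3874 such genes on the array. Another 5 had all of them below 0 (20.0%), against 28.0%, and 9 had probe sets of both signs (36.0%), against 47.2%. The 5 that were below 0 throughout were Polr1c, Bysl, Noc3l, Ddx21 and Npm1. Over all 79 member probe sets above background on both arrays, 51 were above 0 (64.6%), with a median log2 ratio of 0.14. Of the 15825 such probe sets of all genes, 49.4% were above 0, with a median of -0.005. Probe sets of the same gene are not independent of each other.

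Other genes of the pathway, 117 listed by name and 112 measured, had a smaller median log2 ratio of 0.10, and 71 were above 0 (63.4%). At 0.32 or more above 0 were 17 (15.2%) and as far below it 6 (5.36%), against 17.1% and 16.2% of all measured genes. The highest of those measured on both arrays were the helicase genes Ddx49 (0.89) and Ddx56 (0.74), the RNA polymerase I subunit gene Cd3eap, now named Polr1g (0.62), the U3 snoRNP gene Imp4 (0.61) and the large subunit gene Ppan (0.61). Ddx49 had 594 units on the CSF1 array and 319 units on the control array. The lowest were the RNA polymerase I terminator gene Ttf1 (-0.79), Mdn1 (-0.62), which removes assembly factors from the large subunit precursor, Nle1 (-0.45), Tsr3 (-0.39, and 0.78 on its other probe set) and Shq1 (-0.38), a chaperone of Dkc1. Ttf1 had 206 units on the CSF1 array and 355 units on the control array. In the list of other genes, as among the members, RNA polymerase I genes lay at both ends. Taf1c, a subunit of the selectivity factor of RNA polymerase I, had 264 units on the CSF1 array and 121 units, under the background level, on the control array, a difference of at least 1.98-fold. Other subunits of this factor had smaller log2 ratios, 0.24 for Taf1a, -0.10 for Taf1b and 0.20 for Taf1d. The 3 probe sets of Taf1d above background on both arrays ran between -0.49 and 0.20.

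**Figure D3:**
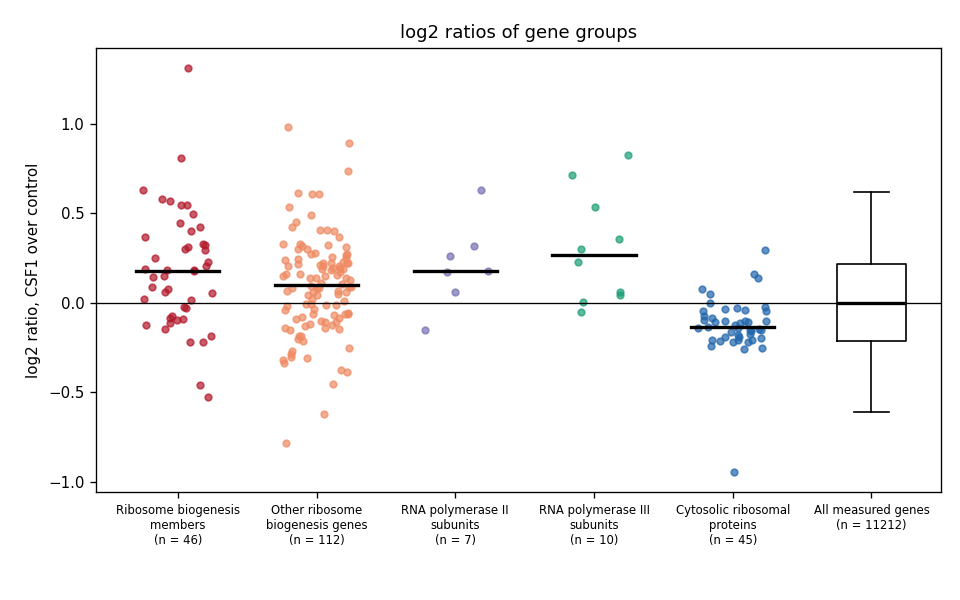
log2 ratio (CSF1 array over control array) for each measured gene of 5 groups, with the median as a black line and points spread sideways only for view. The box shows all 11212 measured genes (quartiles, with whiskers at the 5th and 95th percentiles); the members have a median of 0.18 and the cytosolic ribosomal proteins of -0.13, and Rrp9 (1.31), Polr3g (0.82) and Taf1c (0.98) are lower bounds.

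Subunits of the other nuclear RNA polymerases were also mostly above 0 on their brightest probe sets. Of the 7 RNA polymerase II subunits, 6 were above 0, with a median log2 ratio of 0.18, and the largest subunit Polr2a had 799 units on the CSF1 array and 516 units on the control array, 1.55-fold. Of the 10 RNA polymerase III subunits measured, 9 were above 0, with a median of 0.26. This depended on the choice of probe set: with probe sets not marked as shared 6 of the 10 were above 0, with a median of 0.02, and with a median over the probe sets that passed background on both arrays 7 were, with a median of 0.06. Polr3k had 1969 units on the CSF1 array and 1199 units on the control array, 1.64-fold on its brightest probe set, but the 4 of its 6 probe sets that passed background on both arrays ran between -0.88 and 0.71. Polr3g had 236 units on the CSF1 array and 121 units, under the background level, on the control array, a difference of at least 1.77-fold, and Polr3a was at -0.05. Of the subunits common to the 3 enzymes, Polr2h (0.52) and Polr2e (0.37) were above 0 and Polr2f was at -0.05.

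The cytosolic ribosomal proteins, the building blocks that the members assemble, had a median log2 ratio of -0.13, with 5 of 45 measured genes above 0. The highest was Rpl12 (0.29) and the lowest Rps27 (-0.94), both near the background level. This direction depended on the scaling: after quantile normalization 25 of the 45 were above 0, with a median of 0.01, and after the loess correction 22 were, with a median of -0.01. The ribosomal protein probe sets had a median signal of 21421 units, and the 379 measured genes above 10000 units had a median log2 ratio of -0.11. The median of the members was 0.16 under both of these settings. Only 46 of 82 ribosomal protein genes had a probe set with a single gene symbol.

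**Figure D4:**
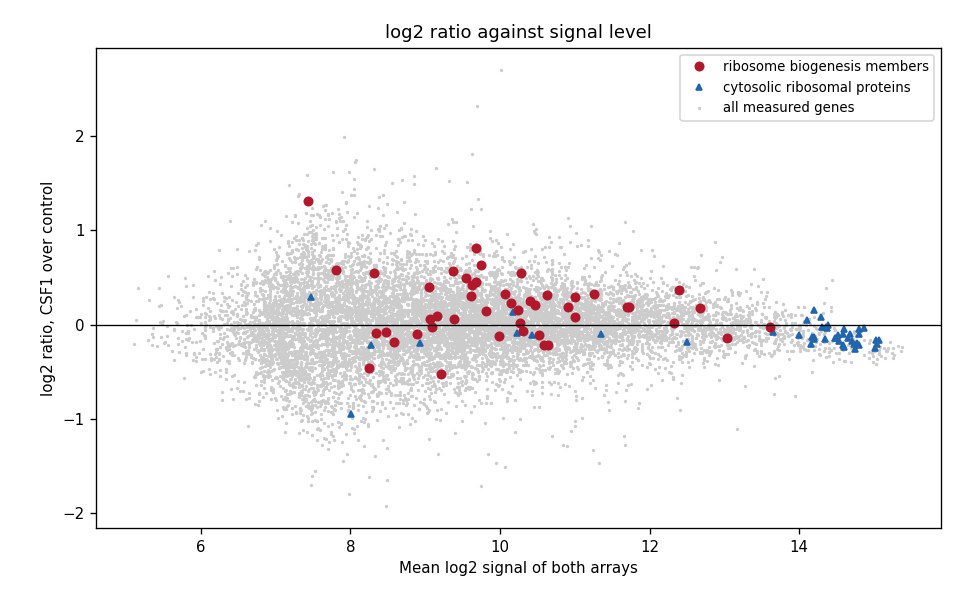
log2 ratio (CSF1 array over control array) against the mean log2 signal, for the 46 members (circles), 45 cytosolic ribosomal proteins (triangles) and all 11212 measured genes (dots). Most members lie above 0 and 1 of them above 10000 units, against 36 of the 45 ribosomal proteins, whose other genes lie at lower signals.

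Myc itself had 895 units on the CSF1 array and 676 units on the control array, 1.32-fold, on 1 probe set above background on both arrays. Its obligate partner Max had a log2 ratio of 0.12. Of the other genes of the Myc and Max network, among them the Mxd genes whose products compete with Myc for Max, Mxd3 had 309 units on the CSF1 array and 142 units on the control array, 2.17-fold, close to background. Mxi1 had 1262 units on the CSF1 array and 1821 units on the control array, 1.44-fold lower and below 0 on both probe sets. Mga was at -0.63, with the 3 of its 5 probe sets that passed background on both arrays between -0.63 and 0.04, Mxd4 at 0.57, with 3 of 4 such probe sets between -0.59 and 0.57, and Mnt (0.07), Mxd1 (-0.07) and Mlx (0.16) were near 0. Mycn was at -0.49 near background and Mycl was not above it. Mki67, which marks dividing cells, was at 0.14, but other cell cycle genes, named after their values were seen, varied. Cdk1 (1.23), Ccnd1 (1.05) and Ccna2 (0.45) were higher, while Cdc20 (0.14), Aurkb (0.13) and Ccnb2 (-0.02) were nearer to 0. Also at least 0.32 above 0 were Ccne2, Cdca3, Cdc25a, Ccnf, Cdc6, Cdt1, Birc5 and Cdca8, while Cenpe, Cenpi and Cenpa were below 0. The share of cell cycle genes above 0 was not counted, and the genes named first do not stand for it. A difference in cell division was not tested.

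Both arrays had the same trimmed mean of 500.003 units, and 41.6% of probe sets were above background on the CSF1 array and 43.5% on the control array. The 18 spike-in control probe sets averaged -0.29 ± 0.13 (log2 ratio, SD), and the housekeeping genes Actb and Gapdh were at -0.30 each on their brightest probe sets. Over its probe sets Actb averaged -0.30 ± 0.02 (SD, n = 5) and Gapdh -0.54 ± 0.22 (SD, n = 3). For Gapdh, probe sets at the 3′ end were 1.40 times as bright as those at the 5′ end on the CSF1 array and 1.03 times on the control array, and for Actb 1.38 times on the CSF1 array and 1.35 times on the control array. Of 12 macrophage markers 11 were measured, Csf1r among them with 18697 units on the CSF1 array and 23704 units on the control array. Cd163 was not above background. The summed signal of the macrophage markers was 169515 units on the CSF1 array and 196371 units on the control array, and 2 of the 11 were above 0. Cd68, Lyz2, Mpeg1 and Csf1r were above 10000 units, a range in which the measured genes had a median log2 ratio of -0.11. Sums of markers add signals of different probes, which are not comparable between genes. All 5 fibroblast markers were measured and above 0 on their brightest probe sets, with a summed signal of 40406 units on the CSF1 array and 32654 units on the control array. The 2 probe sets of Pdgfra above background on both arrays had log2 ratios of -0.58 and 0.32. Those of Col1a1 had -0.25 and 0.12, and those of Col1a2 had 0.18 and 0.22. The other 10 marker lists summed to at most 5673 units on the CSF1 array and 4922 units on the control array, and of their 38 genes with a probe set 13 were above background on both arrays and 17 on neither. The brightest was the neutrophil gene S100a8, with 5487 units on the CSF1 array and 4838 units on the control array. The other neutrophil genes with a probe set, S100a9, Mpo and Elane, were not above background. Next came the mast cell gene Cpa3, with 1236 units on the CSF1 array and 1421 units on the control array. Of the other mast cell genes, Mcpt4 was not above background and Kit was above it on the CSF1 array only. Tpsb2 had 215 units on the CSF1 array and 290 units on the control array. Of the T cell genes Cd3d and Cd3g were above background on both arrays and Cd3e was not. The part of fibroblasts and of RNA integrity in the ratios of the members was not tested.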

How the data were processed

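RNA of 2 samples was measured on Affymetrix Mouse Genome 430 2.0 arrays, and groups follow the treatment label. The authors deposited intensity values on a linear scale, made with GeneSpring 6.2 per the series' design text; how probes were summarised is not stated in the sources used here, and both arrays had an equal trimmed mean (2% off each end). Values were moved to log2 without further scaling. Probe sets with 1 gene symbol were used (34958; 932 had several and 9211 none), and all 46 member symbols matched RefSeq by Entrez ID. The background level was the 90th percentile of the values of 89 genes specific to unrelated tissues (141 probe sets; 95 genes listed), and lower values were raised to it; a gene was measured when 1 array exceeded it (11212 genes, 9785 on both arrays). The measure was the log2 ratio of CSF1 over control, counted at 0, at 0.32 (log2), at 1.5-fold and at 2-fold. For 15 members the brightest probe set has a name (ending _a_at, _s_at or _x_at) that marks possible matches to further transcripts.

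Since each group has 1 array, neither tests nor standard errors between arrays were possible. The members and gene lists were chosen with earlier results of these data known. All members are named; values are given for those at least 1.5-fold apart, the highest and lowest of each role and the brightest, with others added after their values were seen. Of the other pathway genes, the 5 highest and 5 lowest ratios measured on both arrays are named. Alternatives tried were a loess correction (span 0.3), quantile normalization, centring on the spikes or on the median, a background level at the 95th percentile, at the median of all values or none, other choices of probe set, only genes above background on both arrays, and other fold thresholds. The procedure was tested on simulated arrays, with planted ratios larger than the median of the members and in genes well above background. Ratios as small as that median were not simulated. Software was matplotlib 3.10.9, statsmodels 0.14.6, scipy 1.17.1, pandas 2.3.3 and numpy 2.4.6 under Python 3.11.15.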

Additional observations from a re-analysis of the deposited data

How the results depend on the processing

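The median log2 ratio of the members and the number above 0 kept their direction under the alternatives planned, with the median 0.14 to 0.19 above that of all genes measured. Centring on the hybridisation spikes raised the median of all measured genes to 0.28. Uncorrected for this, the median of the members became 0.47, with 17 at least 1.5-fold higher. The share of all measured genes past 1.5-fold under this centring is not given. The 17 therefore do not show a difference between members and other genes. Under the same centring the medians of the roles were 0.50 for RNA polymerase I, 0.60 for box C/D and 0.64 for box H/ACA. They were 0.38 for the small subunit, 0.44 for the large subunit and 0.27 for the multifunctional proteins. With the median over all probe sets above background on both arrays, 1 member was at least 1.5-fold higher instead of 3. At a log2 ratio of 0.32, 14 members were higher and 2 lower, and at 2-fold 1 was higher. With only the 25 members that have 2 or more such probe sets, a setting chosen after seeing the data, 16 were above 0, with a median of 0.08. Without the 9 members whose probe sets disagree in sign, also chosen after seeing the data, 27 were above 0. Among all measured genes, without such a choice, the share above 0 was 50.0%. Over 16 alternatives, which leave out uncorrected spike centring, 24 members stayed above 0, 8 stayed below 0 and 14 changed sign at least once. Among those that changed were Bop1, Polr1e, Ddx18, Heatr1, Ncl and Nip7, and the cause was not tested. No share of all measured genes stands beside these counts, or beside the 1.5-fold counts with spike centring and with the median over probe sets. They describe the members only. Genes near the background level, such as Rrp9 and Polr1b, are limited by signal over background, and 1 array per group by the lack of replicates. No paired analysis was possible because each group has 1 array.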

Other observations

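Of the 97 member probe sets, 79 were above background on both arrays, 14 on neither and 4 on 1 array. Beside the probe set of Rrp9, the last were second probe sets of Noc2l, with 163 units on the CSF1 array and 26.3 units on the control array, of Heatr1, with 156 units on the CSF1 array and 97.4 units on the control array, and of Polr1a, with 146 units on the CSF1 array and 129 units on the control array. All 4 were above background on the CSF1 array only. Those of Noc2l and Heatr1 differ from the brightest probe sets of these genes, which had log2 ratios of 0.06 and -0.22.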
